A study of Mus musculus with 10 samples.

Results

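Lysyl oxidases are secreted copper enzymes that turn lysines of collagen and elastin into aldehydes, which then join into the covalent cross-links that stiffen the extracellular matrix. Mice have 5 of them. Lox and Loxl1 are made as proenzymes with a propeptide that is cut off outside the cell, whereas Loxl2, Loxl3 and Loxl4 carry scavenger receptor repeats in front of the catalytic domain. In the brain, matrix rich in fibrillar collagen and elastin is found mainly in the meninges and around vessels, and hippocampal neurons and glia lie in a matrix poor in these fibres.

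The family was followed here in the hippocampus of 10 male C57BL/6J mice aged 10 to 14 weeks. SAH mice (n = 4, mice 1 to 4) had a subarachnoid hemorrhage on 1 side, made by pushing a filament through the wall of the circle of Willis, and were kept in the study only if cerebral blood flow dropped strongly at perforation. Sham mice (n = 3, mice 5 to 7) had the operation without perforation, and Naive mice (n = 3, mice 8 to 10) had none. Both whole hippocampi of each mouse, with whatever meninges and vessels came with them, were collected, at 4 days after surgery for SAH and Sham mice, and gave 1 library of total RNA depleted of ribosomal RNA. Sham and Naive mice together are called control (n = 6). The study pooled them in the same way.

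The 5 members, Lox, Loxl1, Loxl2, Loxl3 and Loxl4, were taken by name out of 24391 gene names, and all 5 had counts in every mouse. The family itself was chosen on results from these same mice, since Lox was already known to be among the larger rises after SAH. The SAH differences of Lox are therefore given as a description, without a test. Those of the other members carry the adjusted p of a fit over all genes, and they are not independent of the choice of the family. Of the 5 members, 4 passed the filter on low counts, and Loxl4 did not.

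Total counts ran from 19743388 to 27254655 per mouse, and the family took between 222 and 374 of them. The library of SAH mouse 3 stood apart from the other SAH libraries, with a chi-square per degree of freedom of 14.68 to 18.45 against each of them, where the other pairs of mice within a group gave 3.94 to 10.27. Neuron markers and hippocampal principal neuron markers fit the labelled tissue: their summed level was 6719 to 7322 CPM and 672 to 711 CPM in SAH mice, and 6636 to 7087 CPM and 639 to 723 CPM in control mice. CPM is the count after every library was brought to a common size with TMM scaling, and of the 12 genes on both lists edgeR called 0 in SAH against control, DESeq2 called 1 and 2 had an unadjusted p under 0.05.

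What the 5 enzymes share can be read from the stretch that holds the copper ion. Their coding exons were searched on the sense strand for TGGCANNNNTGNCANNNNCANTANCAN, the 27 bases that spell the histidine-rich copper site, and each member held it once in its reading frame. In the reference annotation of mm9, 5 of 22594 coding genes (0.0221%) held it, and these were the 5 lysyl oxidases. The sites of the 4 members on chromosomes other than 18 are shown in the sense direction, with capitals for the 17 bases that are the same in all 5 members.
Loxl1: TGGCAtagcTGtCAccaaCAtTACCAC
Loxl2: TGGCAcgacTGcCAcaggCAcTACCAC
Loxl3: TGGCAtgagTGtCAtgggCAtTACCAC
Loxl4: TGGCAccagTGcCAcaggCAcTACCAC
In every member an intron split the site after base 17. In Loxl1 (minus strand) it lay on chr9:58142166-58142182 and chr9:58141527-58141536, in exons 3 and 4. In Loxl2 (plus strand) it lay on chr14:70082129-70082145 and chr14:70088835-70088844, in exons 10 and 11. In Loxl3 (plus strand) it lay on chr6:82999995-83000011 and chr6:83000110-83000119, also in exons 10 and 11. In Loxl4 (minus strand) it lay on chr19:42674367-42674383 and chr19:42673297-42673306, in exons 11 and 12.

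The closest sites were those of Lox with Loxl1 and of Loxl2 with Loxl4. Lox and Loxl1 were identical at 26 of 27 bases (96.3%) and Loxl2 and Loxl4 at 25 (92.6%), while pairs across the groups with and without a propeptide shared 18 to 20 bases. Loxl3 lay between, sharing 21 bases with each of Loxl2 and Loxl4, 20 with Loxl1 and 19 with Lox. The likeness did not reach the length of a read: 0 runs of 50 bases, the length of 1 sequenced end, were common to the exons of any pair of members, so a read that matched an exon exactly belonged to 1 member.

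In mm9, Lox spans 52675714 to 52689521 on the minus strand of chromosome 18, Loxl1 spans 58135530 to 58161019 on the minus strand of chromosome 9, and Loxl2 spans 70009283 to 70095641 on the plus strand of chromosome 14. Loxl3 spans 82984218 to 83002558 on the plus strand of chromosome 6, and Loxl4 spans 42666769 to 42687296 on the minus strand of chromosome 19. Exons of Loxl3 overlap exons of Htra2, a gene of the opposite strand, by up to 367 bases, and an exon of Loxl2 overlaps the microRNA gene Mir6950 by 7 bases. The deposited counts were made by strand, and a read pair that touched exons of 2 genes on its strand was left out.

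Loxl1 and Loxl3 made up most of the family in the hippocampus of control mice, Sham and Naive. Levels of different genes are compared as CPM per kb of exon, which takes out gene length. In the 6 control mice Loxl3 was at 1.15 ± 0.11 CPM per kb (SD, n = 6), Loxl1 at 1.14 ± 0.112, Loxl2 at 0.192 ± 0.0432, Lox at 0.0918 ± 0.0193 and Loxl4 at 0.0266 ± 0.0127. Loxl1 and Loxl3 did not differ beyond their spread, Loxl1 being the higher of the pair in 2 of 6 control mice and in 3 of 4 SAH mice. Every other step of the order held in each control mouse: both were above Loxl2, Loxl2 above Lox and Lox above Loxl4 in 6 of 6.

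Lox, the founding enzyme of the family and the one with the widest range of collagen and elastin substrates, was higher in each SAH mouse than in any control mouse. SAH mice 1 to 4 had 2.03, 1.36, 3.69 and 0.999 CPM, from 42, 37, 73 and 25 counts. Sham mice 5 to 7 had 0.289, 0.404 and 0.483 CPM, and Naive mice 8 to 10 had 0.527, 0.463 and 0.552 CPM. The SAH values were spread far wider than the control values, with mouse 3 the highest, and 2 of the 3 Sham mice lay below all Naive mice.

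SAH mice averaged 2.02 ± 1.19 CPM of Lox (SD, n = 4), against 0.453 ± 0.0953 CPM (SD, n = 6) for the control mice. On the log2 scale the fitted difference was 2.12 (SE 0.34), or 4.33-fold. Without mouse 3 the log2 fold change was 1.67 (SE 0.27). With all mice, in the fit of 3 groups, it was 2.32 (SE 0.45) against Sham and 1.93 (SE 0.43) against Naive. Among 14993 genes tested, Lox stood 10th from the top by log2 fold change in SAH against control.

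**Figure D1:**
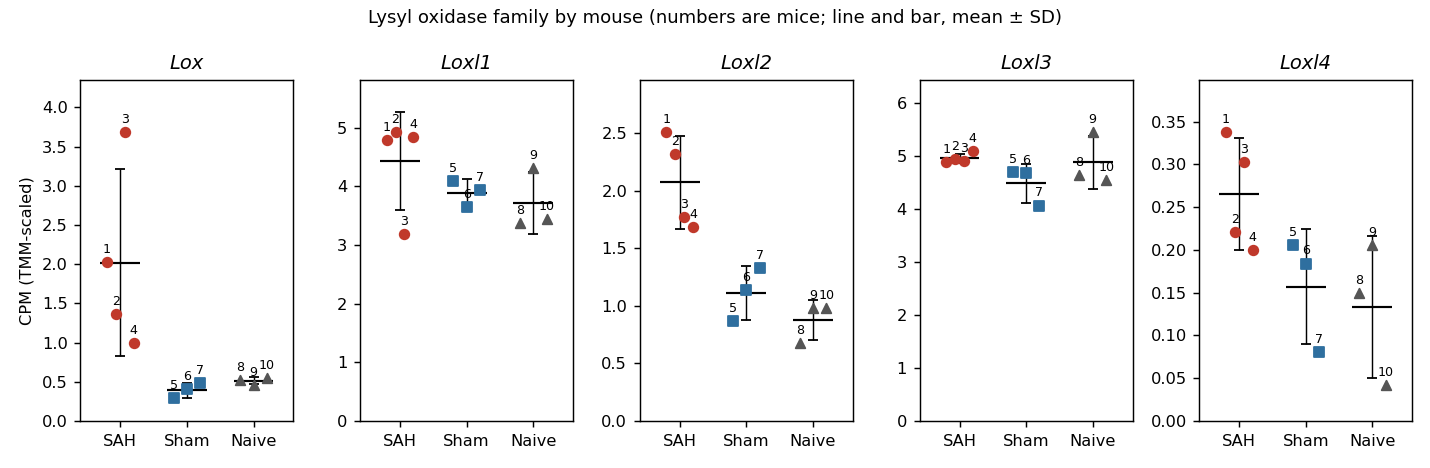
Scaled counts (CPM) of the 5 members in each mouse, 1 panel per gene with its own axis from 0; symbols are mice, labelled by mouse number, and the line and bar give the mean and SD of the group. Lox in the 4 SAH mice sits between 0.999 and 3.69 and Loxl2 between 1.68 and 2.51, above all 6 control mice in both panels, while Loxl1 in SAH mouse 3, at 3.18, is below every other mouse.

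Loxl2, which cross-links collagen IV of basement membranes and also acts inside the cell, was the other member whose SAH mice all lay above the control mice. It was at 2.51, 2.32, 1.77 and 1.68 CPM in SAH mice 1 to 4, from 52, 63, 35 and 42 counts. Sham mice 5 to 7 had 0.867, 1.14 and 1.33 CPM, and Naive mice 8 to 10 had 0.677, 0.977 and 0.976 CPM. The gap between the lowest SAH mouse and the highest Sham mouse was narrow, and the Naive mice lay in the lower part of the control range. Of all genes tested, 2.83% had every SAH mouse above every control mouse in CPM. Of the 4 members besides Lox, whose rise chose the family, Loxl2 did.

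SAH mice averaged 2.07 ± 0.409 CPM of Loxl2 (SD, n = 4), against 0.994 ± 0.224 CPM (SD, n = 6) for the control mice. The fitted log2 fold change was 1.05 (SE 0.20, adjusted p = 0.0124, edgeR's quasi-likelihood test), or 2.08-fold with a 95% interval of 1.54 to 2.8. With the threshold of 0.10 on the adjusted p, 3.13% of all genes were called higher and 1.54% lower in this comparison. Loxl2 was the only one of Loxl1 to Loxl4 to be called, and it was called with each of the 10 mice left out in turn (adjusted p = 0.00977 to 0.0324).

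Split by control group, Loxl2 was 2.37-fold higher in SAH than in Naive mice (log2 fold change 1.25, SE 0.25, adjusted p = 0.0245 by edgeR), a comparison in which 2.99% of all genes were called. Without Naive mouse 8, the lowest of all, that call was lost (log2 fold change 1.08, adjusted p = 0.163). Against Sham mice the log2 fold change was 0.89 (SE 0.23, adjusted p = 0.157 by edgeR, 1.86-fold with a 95% interval of 1.31 to 2.64) and did not pass, where 0.720% of all genes were called. Both comparisons share the SAH mice.

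Loxl1, the member tied to elastic fibre upkeep through its binding to fibulin 5 and tropoelastin, was not called. SAH mice 1, 2 and 4 had 4.79, 4.93 and 4.84 CPM, above all control mice. SAH mouse 3 had 3.18 CPM, the lowest of the 10. Sham mice 5 to 7 had 4.09, 3.64 and 3.94 CPM and Naive mice 8 to 10 had 3.38, 4.32 and 3.44 CPM, so that the groups overlapped only through mouse 3.

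The log2 fold change of Loxl1 in SAH against control was 0.23 (SE 0.13, adjusted p = 0.408 by edgeR), with a 95% interval from 0.961-fold to 1.44-fold. Without SAH mouse 3 it was 0.36 (SE 0.11, adjusted p = 0.135) and was not called either. With all mice, in the fit of 3 groups, it was 0.20 against Sham and 0.27 against Naive (adjusted p = 0.742 and 0.485 by edgeR).

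Loxl3, known for its part in palate and cartilage development, was the most even member across the study. Its 4 SAH mice lay between 4.88 and 5.08 CPM, inside the control range of 4.06 to 5.45 CPM, and the mean was 4.95 ± 0.0879 CPM (SD, n = 4) against 4.68 ± 0.447 (SD, n = 6). The log2 fold change of 0.09 (SE 0.10, adjusted p = 0.687 by edgeR) had a 95% interval from 0.917-fold to 1.23-fold. Against Sham it was 0.14 and against Naive 0.03 (adjusted p = 0.732 and 0.94).

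Loxl4 was close to the limit of what this depth can show. It had 7, 6, 6 and 5 counts in SAH mice 1 to 4, 5, 5 and 2 in Sham mice 5 to 7, and 4, 4 and 1 in Naive mice 8 to 10. In CPM the SAH mice ran from 0.2 to 0.338 and the control mice from 0.0424 to 0.206, with a slight overlap. In a fit without the filter the log2 fold change was 0.83 (SE 0.42, adjusted p = 0.382 by edgeR), and its 95% interval, 0.957-fold to 3.31-fold, covers both no difference and a rise as large as that of Loxl2.

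**Figure D2:**
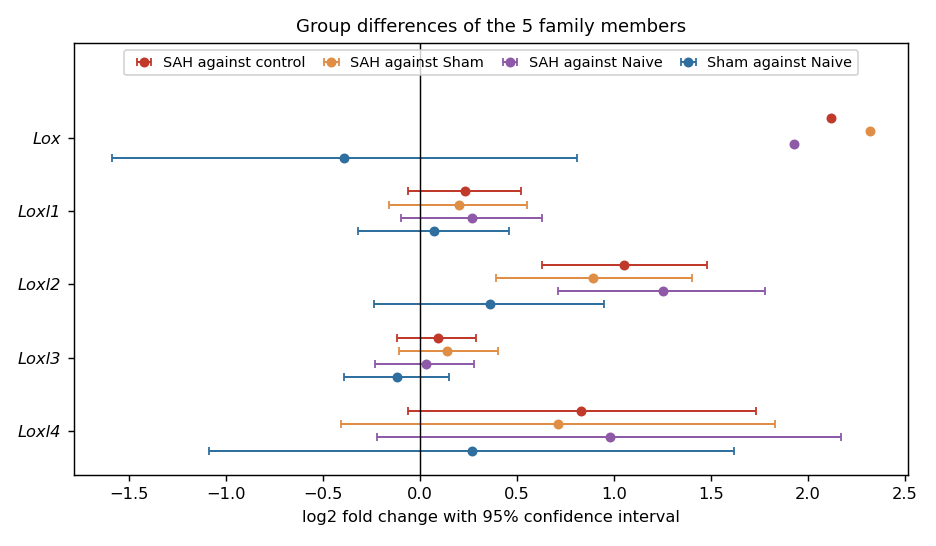
Log2 fold change (horizontal axis) of each member in the 4 comparisons, with 95% confidence intervals from edgeR; Loxl4 comes from the fit without the filter on low counts. For Lox the 3 comparisons with SAH are points without an interval, since it was chosen on them. The intervals of Loxl2 stay above 0 in the 3 comparisons with SAH and reach below 0 in Sham against Naive, and those of Loxl1, Loxl3 and Loxl4 include 0 throughout.

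Surgery without perforation did not separate the members detectably. In Sham against Naive the log2 fold change was −0.39 for Lox (SE 0.55), 0.07 for Loxl1 (SE 0.18), 0.36 for Loxl2 (SE 0.27), −0.12 for Loxl3 (SE 0.12) and 0.27 for Loxl4 (SE 0.64), each with an adjusted p of 1 from edgeR. The 95% intervals were wide for the scarce members, from 0.333-fold to 1.75-fold for Lox and from 0.848-fold to 1.93-fold for Loxl2. In this comparison 1 gene of 15134 (0.00661%) was called, the meningeal fibroblast marker Slc13a4 (log2 fold change 1.51, SE 0.19, adjusted p = 0.0488 by edgeR), 305 had an unadjusted p under 0.05, and DESeq2 called 2.

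Because the members moved unequally, the make-up of the family shifted. Summed over the 5 members, the level was 3.41 ± 0.152 CPM per kb (SD, n = 4) for SAH mice, against 2.6 ± 0.193 (SD, n = 6) for control mice, and the lowest SAH mouse, at 3.27, was above the highest control mouse, at 2.96. Lox made 11.4%, 7.98%, 22.6% and 6.2% of the sum in SAH mice 1 to 4, and 2.21% to 4.55% in control mice. Loxl2 made 9.92% to 13.5% in SAH and 5.4% to 10% in control. Loxl3 went from 39.3% to 47.2% in control down to 33.5% to 38.4% in SAH, while its own level stayed inside the control range. SAH mouse 3 was unlike the other mice in that Lox, at 22.6%, came near Loxl1, at 28.8%. The sum and these shares are descriptions, since they contain Lox, whose rise chose the family. The separation of SAH from control mice in the sum is therefore not independent of that choice.

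**Figure D3:**
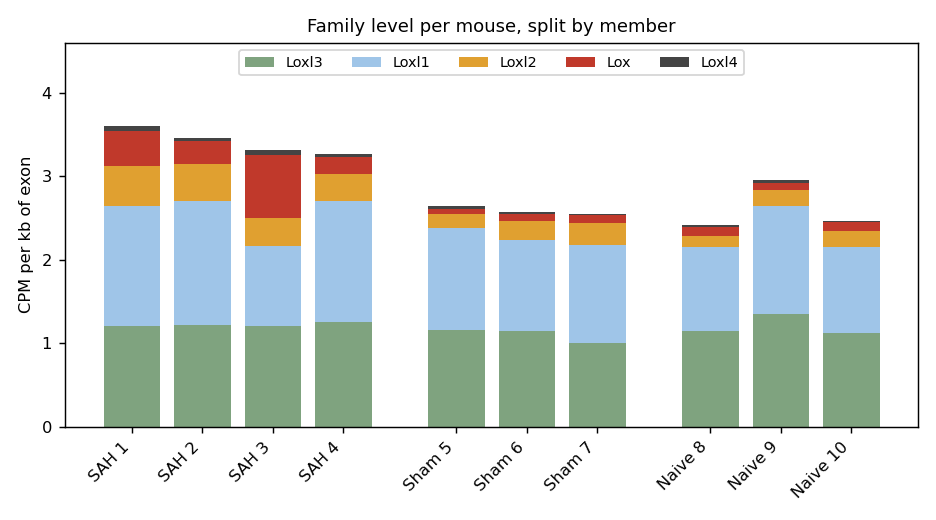
Level of the family in each mouse as CPM per kb of exon (vertical axis from 0), stacked by member, with mice grouped as SAH, Sham and Naive. The bars contain Lox, whose rise chose the family. The SAH bars reach 3.27 to 3.6 and the control bars 2.42 to 2.96; the Lox and Loxl2 segments are taller in each SAH bar than in any control bar, and Loxl1 is taller than in all control bars in SAH 1, 2 and 4 and shortest in SAH 3.

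How far the members went together from mouse to mouse depended on the groups and on SAH mouse 3. Over the 10 mice, Pearson's r of log2 CPM was 0.78 for Lox with Loxl2, which both differ between SAH and control, and 0.15 once each group's mean was taken out. That last value was 0.73 without SAH mouse 3. For Lox with Loxl1 it was 0.08, and −0.79 with group means taken out, or −0.30 without SAH mouse 3, which was highest in Lox and lowest in Loxl1. Loxl1 and Loxl2 had an r of 0.56, 0.35 with group means taken out and 0.17 if SAH mouse 3 was left out as well. Loxl1 and Loxl3 had one of 0.39, 0.37 with group means taken out and 0.65 if SAH mouse 3 was left out as well. The points share depth and tissue sampling, and no p is given.

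Other genes resembled the members by the same measure. Those most like Lox were C3, the central complement component (r = 0.963), Acot1, an acyl-CoA thioesterase (0.957), the calcium-binding S100a6 (0.945), the complement peptide receptor C3ar1 (0.945) and the tetraspanin Tspan4 (0.941). With group means taken out their r was 0.78 to 0.92, and none of them was then among the 5 nearest to Lox. SAH mice had 4.02 ± 2.13 CPM of C3 (SD, n = 4), against 1.38 ± 0.338 (SD, n = 6) for control mice.

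Those most like Loxl2 were Angptl2, a secreted angiopoietin-like protein (r = 0.955), the scavenger receptor Colec12 (0.955), the stress factor Nupr1 (0.954), the growth factor Igf2 (0.951) and Cdkn2aipnl (0.949). Of these, Igf2 averaged 135 ± 42.6 CPM (SD, n = 4) over SAH mice, against 56.5 ± 15.5 (SD, n = 6) over control mice. Most like Loxl1 were Pctp (0.941), the cystine transporter Slc7a11 (0.938), Zfp52 (0.934), the cytokine receptor subunit Il6st (0.926) and Prss16 (0.914). Most like Loxl3 were A830018L16Rik (0.979), the non-muscle myosin Myh10 (0.950), the presynaptic scaffold Pclo (0.909) and Lpgat1 (0.873). These genes like Loxl3 were called in neither direction, with log2 fold changes from −0.00 to 0.04. These lists depend on the measure: by Spearman's rho, 0, 0, 1 and 0 of the 5 genes nearest to Lox, Loxl1, Loxl2 and Loxl3 were again among the nearest 5, and with group means taken out 0, 0, 0 and 3 were.

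The enzymes act on matrix made, processed and assembled by other genes, and 11 lists of these were read from the same fit. Of 120 genes listed, 114 were tested, 24 were called higher (21.1%, against 3.13% of all genes) and 1 lower (against 1.54%), and the median log2 fold change was 0.17 against −0.00 over all genes tested. Without SAH mouse 3 the counts were 23 and 1. With Naive mice alone as control 16 of the 25 calls were kept. Eln, Col1a1, Fn1, Emilin1, P4ha3 and Tgfbr2 were among the 9 lost (adjusted p = 0.219, 0.139, 0.163, 0.128, 0.355 and 0.211 by edgeR). With Sham mice alone 4 calls were kept, those of Fbln5, Efemp1, Cp and F13a1 (adjusted p = 0.0752, 0.0804, 0.0804 and 0.0752), and 21 were lost, with log2 fold changes of the same sign. The lists were written with earlier results from these mice known, and no test of a list was made.

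Among substrates, 3 of 11 fibrillar collagen genes were called higher and 0 lower, with a list median of 0.30. Col3a1, a fibrillar collagen of vessel walls and soft tissue, was at 14.6, 11.8, 4.8 and 6.95 CPM in SAH mice 1 to 4 and at 3.14 to 4.71 CPM in control (log2 fold change 1.38, SE 0.25, adjusted p = 0.00929). Col1a2 (1.21, adjusted p = 0.0045) and Col1a1 (0.91, adjusted p = 0.0217), the chains of collagen I, were called too. SAH mouse 3, which was highest in Lox, was the lowest SAH mouse in all 3, and in Col1a1 its 5.86 CPM fell within the control range of 5.14 to 6.76.

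Of the 7 genes of the collagen IV and elastin list, the targets of Loxl2 and of the elastin-directed members, 3 were called higher, 2 to 5 with each mouse left out and 5 without SAH mouse 1. Eln, the gene of tropoelastin, was at 8.97 to 10.3 CPM in SAH and 5.22 to 7.94 CPM in control, without overlap (log2 fold change 0.43, SE 0.11, adjusted p = 0.0593), but that call was lost without SAH mouse 3 (adjusted p = 0.104), SAH mouse 4 (0.13) or Sham mouse 5 (0.117), as with either control group alone. The minor collagen IV chains Col4a5 (0.61, adjusted p = 0.00945) and Col4a6 (0.87, adjusted p = 0.0135) were called higher. The major chain Col4a1 had 0.27 (adjusted p = 0.362), and passed only without SAH mouse 1 (0.41, adjusted p = 0.0699).

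Scaffold genes that hold lysyl oxidases on elastic fibres included the smallest adjusted p of the lists. Fbln5, fibulin 5, to which Loxl1 binds, was at 8.17, 6.11, 7.68 and 7.67 CPM in SAH mice 1 to 4 and at 3.08 to 3.75 CPM in control (log2 fold change 1.12, SE 0.11, adjusted p = 0.000328). Its SAH mice lay well apart from the control mice and mouse 3 was no exception. The related Efemp1 (0.92, adjusted p = 0.000667) and Emilin1 (0.63, adjusted p = 0.0318) were called higher, and 4 of 14 tested genes of this list were called in all, 0 of them lower.

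Of the 13 genes that process the propeptide or assist it, 2 were called higher. Bmp1, the protease that cuts the Lox propeptide, had 0.11 (SE 0.11, adjusted p = 0.622), and Postn, a matricellular protein that helps in this step, 0.47 (adjusted p = 0.299). Pcolce, an enhancer of the same protease on procollagen, was at 9.33 to 14.4 CPM in SAH and 2.72 to 7.2 CPM in control (1.38, SE 0.20, adjusted p = 0.00375). Fn1, fibronectin, which binds Lox, was at 71.6 to 110 CPM in SAH and 42.2 to 73.8 CPM in control (0.69, adjusted p = 0.0166, lost with either control group alone). The procollagen protease Adamts3 had −0.19 (adjusted p = 0.22) and passed only without SAH mouse 2 (−0.27, adjusted p = 0.0558).

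The small proteoglycans that sit on collagen fibrils had the highest median of the 11 lists, 0.88, with 4 of 7 tested genes called higher. Fmod, fibromodulin, was at 35.8, 31.3, 11 and 22.8 CPM in SAH mice 1 to 4 and at 2.78 to 8.87 CPM in control (2.10, SE 0.32, adjusted p = 0.0044). Within control, the Sham mice, at 6.72 to 8.87 CPM, were all above the Naive mice, at 2.78 to 4.1 CPM. Lum, lumican (1.13, adjusted p = 0.00596), and Bgn, biglycan (0.88, adjusted p = 0.00201), were called too, and mouse 3 was the lowest SAH mouse in each of the 3.

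Genes that supply copper or prepare collagen for cross-linking gave 1 call in each list, 9.09% and 5.88% of those tested, against 3.13% of all genes. In copper handling 1 of 11 tested genes was called, Cp, the plasma and astrocyte ferroxidase ceruloplasmin (0.86, SE 0.10, adjusted p = 0.000959), while Atp7a, the pump that loads copper onto lysyl oxidases, had 0.14 (adjusted p = 0.514), the metalloreductase Steap2 0.25 (adjusted p = 0.441) and the copper chaperone Atox1 0.07 (adjusted p = 0.497). In collagen modification and folding 1 of 17 was called, the prolyl hydroxylase subunit P4ha3 (0.54, adjusted p = 0.0625), which was lost without any one of Naive mouse 10, SAH mice 1, 3 and 4 and Sham mice 5 and 6 (adjusted p = 0.109 to 0.144). Plod2, the lysyl hydroxylase that directs the type of cross-link, stood at 9.63 ± 1.23 CPM (SD, n = 4) and 9.62 ± 0.914 (SD, n = 6), with an adjusted p of 0.998. The folding helper Fkbp10 had 0.21 (adjusted p = 0.219) and the lysyl hydroxylase Plod1 −0.14 (adjusted p = 0.354).

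Other enzymes that cross-link matrix or oxidise amines gave 2 calls of 5 tested, both transglutaminases. F13a1, the coagulation factor XIII subunit that is also made by resident macrophages, was at 4.27 to 6 CPM in SAH and 1.32 to 2.5 CPM in control (1.49, SE 0.17, adjusted p = 0.00086). Tgm2 was at 13.5, 14.9, 26.6 and 20.5 CPM in SAH mice 1 to 4 and at 9.06 to 12.7 CPM in control (0.83, adjusted p = 0.0169), with mouse 3 the highest, as in Lox. The copper amine oxidase Aoc3 had 0.18 (adjusted p = 0.754).

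Pathways known to raise lysyl oxidase transcripts were mixed. In TGF-beta signalling 4 of 11 genes were called higher and 1 lower. The higher count fell to 1 without SAH mouse 4 and to 2 without Naive mouse 8, 9 or 10. The ligand Tgfb1 had 0.22 (adjusted p = 0.403), the receptor Tgfbr2 0.41 (adjusted p = 0.0326, lost without SAH mouse 4, 0.127), the transducer Smad3 0.29 (adjusted p = 0.0125) and the inhibitory Smad7 −0.38 (adjusted p = 0.0224). The other inhibitory member, Smad6, named after its value was seen, was called higher (0.71, adjusted p = 0.081). Of 12 hypoxia response genes 0 were called by edgeR and 0 by DESeq2, and 1 had an unadjusted p under 0.05. The oxygen-regulated factors Hif1a and Epas1 had 0.02 (adjusted p = 0.796) and 0.16 (adjusted p = 0.336), the hypoxia target Ndrg1 −0.09 (adjusted p = 0.384) and the glucose transporter Slc2a1 0.62 (adjusted p = 0.211), which passed only without SAH mouse 1 (0.80, adjusted p = 0.0699) and was 0.20 without SAH mouse 3 (adjusted p = 0.611). Slc2a1 was at 169 CPM in SAH mouse 3 and at 48.5 to 89.7 CPM in the other 9.

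Of 6 transcription factors of epithelial-mesenchymal transition, through which Loxl2 and Loxl3 are known to act, 0 were called by edgeR and 0 by DESeq2, and 1 had an unadjusted p under 0.05. Snai1 had the smallest adjusted p (0.93, SE 0.32, adjusted p = 0.154) and was called in SAH against Naive (1.44, adjusted p = 0.0908), Twist1 had −0.30 (0.442), Twist2 0.29 (0.502) and Snai2 0.26 (0.653).

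**Figure D4:**
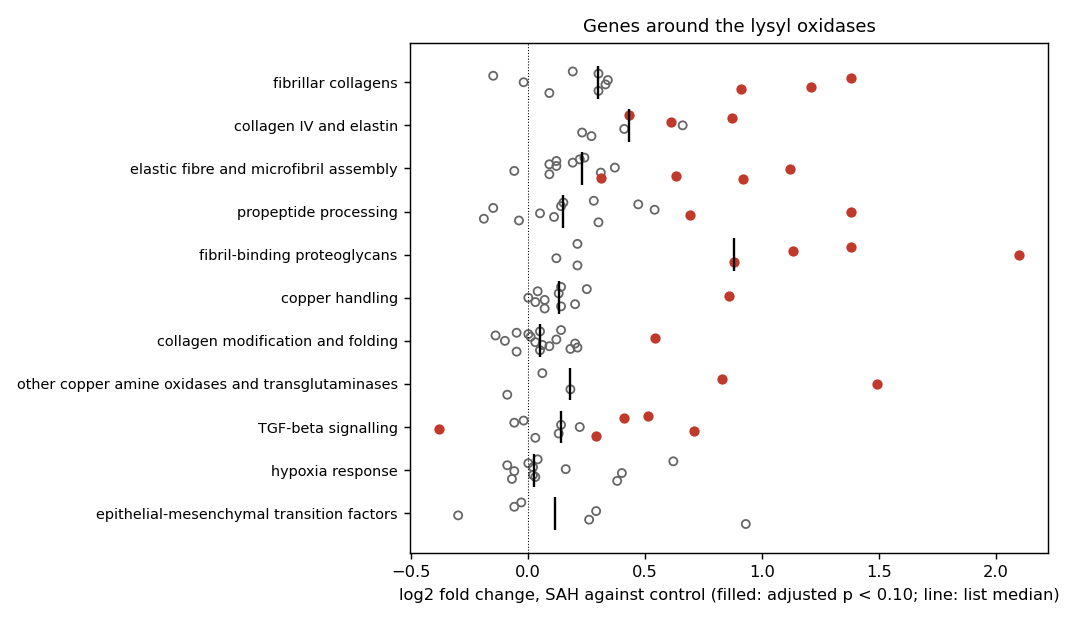
Log2 fold change in SAH against control (horizontal axis) of each tested gene in the 11 lists (rows), filled where the adjusted p was under 0.10, with a line at the list median. Filled points lie to the right of 0 except for Smad7 at −0.38, and the hypoxia and transition factor rows hold none.

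Summed markers of meningeal and perivascular fibroblasts and of border macrophages were highest in SAH mice, lower in Sham mice and lowest in Naive mice, without overlap. Smooth muscle and pericyte sums also put each SAH mouse above each control mouse. Other vessel and border cell types gave fewer calls against control, which did not hold for the fibroblast markers in SAH against Sham. In bulk tissue, more cells of a type and more RNA per cell cannot be told apart. Of the markers of meningeal and perivascular fibroblasts 6 of 7 were called higher, and their sum was 49.4 to 77.9 CPM in SAH, 41.9 to 47.1 CPM in Sham and 23.2 to 30.7 CPM in Naive mice. Split by control group, edgeR called 6 of the 7 against Naive mice and 0 against Sham mice, where 6 had an unadjusted p under 0.05 and DESeq2 called 3. Border macrophage markers had 4 of 6 called higher (14.7 to 18.9, 8.67 to 10.1 and 5.53 to 6.07 CPM in SAH, Sham and Naive), smooth muscle markers 3 of 5 (35.8 to 63.5, 23.6 to 31.1 and 20.6 to 26.7 CPM), endothelial markers 3 of 7 (128 to 244, 107 to 126 and 110 to 153 CPM) and pericyte markers 1 of 6 (152 to 192, 126 to 142 and 115 to 132 CPM). In SAH against Sham edgeR called 2 of 6 border macrophage, 1 of 5 smooth muscle and 1 of 7 endothelial markers, and 0 of 6 pericyte markers, of which 2 had an unadjusted p under 0.05 and DESeq2 called 1. None of the defining markers on these 5 lists was at 0 in all mice.

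Choroid plexus epithelium markers had 0 of 8 called by edgeR and by DESeq2 (1 at an unadjusted p under 0.05). In the fit of 3 groups, all 8 had an unadjusted p under 0.05 in SAH against Naive, where edgeR called 1, Ttr (log2 fold change 4.30, SE 1.13, adjusted p = 0.0874), and DESeq2 called 3. Their sum varied widely, from 104 to 1229 CPM in SAH, 59.5 to 836 in Sham and 47.5 to 70.1 in Naive mice, with SAH mouse 3 the highest. Astrocyte markers had 1 of 6 called higher (2710 to 3734 CPM in SAH, 2569 to 2809 in control), microglia markers 2 of 6 (381 to 462 and 356 to 399 CPM, with 0 called in SAH against Sham by edgeR or DESeq2 and 2 at an unadjusted p under 0.05) and oligodendrocyte markers 6 of 6 lower (2301 to 2957 and 3365 to 4583 CPM). The 7 monocyte and T cell markers were all under the filter of this fit, though DESeq2, run without it, called 1, Ccr2, and they were at a sum of 0.303 to 1.89 CPM in SAH and 0.206 to 0.404 CPM in control. Of the 5 erythrocyte markers 4, all globins, are listed at 0 in every mouse, so residual blood was judged by Alas2 alone, at 1.06 to 3.68 CPM in SAH and 1.32 to 2.57 CPM in control.

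Lox and Loxl2 can be read beside the fibroblast markers mouse by mouse. In SAH mice 1, 2 and 4 the marker sum was 77.9, 74.7 and 67.5 CPM, and both members had the same order, Lox at 2.03, 1.36 and 0.999 CPM and Loxl2 at 2.51, 2.32 and 1.68 CPM. SAH mouse 3 had the lowest sum of the SAH mice, 49.4 CPM, and was above mouse 4 in both members, with Lox at 3.69 CPM and Loxl2 at 1.77 CPM. Sham mouse 7, whose sum of 47.1 CPM was close to that of mouse 3, had 0.483 CPM of Lox and 1.33 CPM of Loxl2. Sham mice had larger sums than Naive mice, but neither member passed the test between them, and the 95% intervals, 0.333-fold to 1.75-fold for Lox and 0.848-fold to 1.93-fold for Loxl2, include both a fall and a rise. The order of SAH mice 1, 2 and 4 was not particular to the fibroblast markers. Sums of oligodendrocyte markers (2957, 2720 and 2301 CPM) and of hippocampal principal neuron markers (711, 686 and 672 CPM) followed it too. Smooth muscle, pericyte, endothelial and choroid plexus sums ran in the reverse order, and those of the other lists in neither order. The part of any of these cell types in the differences of Lox and Loxl2 was not tested.

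**Figure D5:**
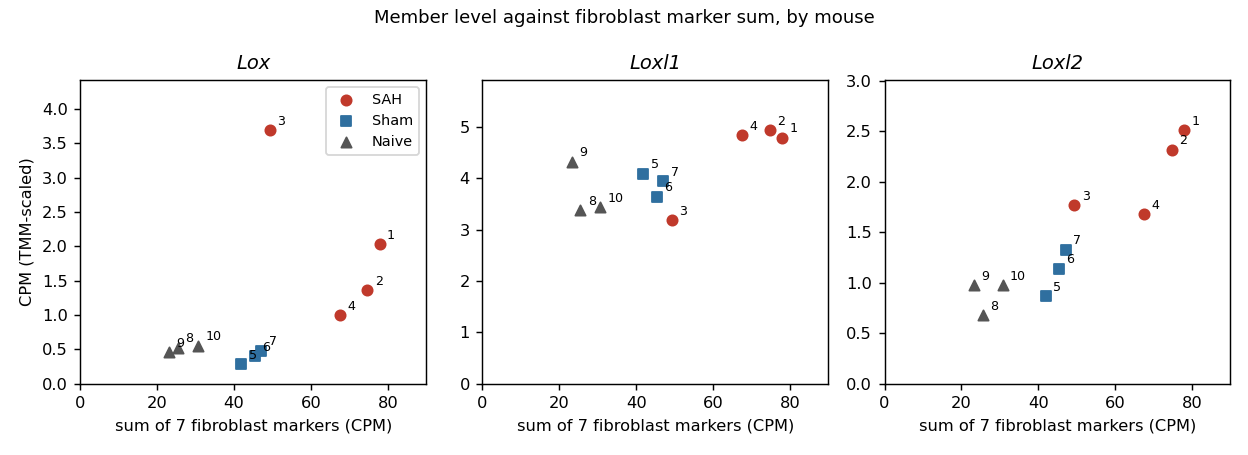
CPM of Lox, Loxl1 and Loxl2 (vertical axes from 0) against the summed CPM of 7 meningeal and perivascular fibroblast markers (horizontal axis), 1 symbol per mouse with its number. SAH mouse 3, with a sum of 49.4, lies above Sham mice 6 and 7, with sums of 45.4 and 47.1, in Lox (3.69 against 0.404 and 0.483) and in Loxl2 (1.77 against 1.14 and 1.33), and below them in Loxl1.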

How the data were processed

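Total RNA of bilateral whole hippocampus from 10 mice was sequenced as 50-base read pairs with a strand-specific kit. Per the study's methods and the file headers, the authors aligned to mm9 with STAR, counted read pairs with featureCounts 1.6.2 (reverse-stranded, UCSC exons summed by gene name) and left out pairs that were not unique or fell on more than 1 gene. The deposited values are these raw counts, without normalization; 1 library is 1 mouse.

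Here, edgeR 4.0.16 in R 4.3.3 (limma 3.58.1) was run on all genes: TMM scaling, filterByExpr (minimum count 10, minimum total 15), quasi-likelihood test, Benjamini-Hochberg adjustment, threshold 0.10. SAH was compared with Sham and Naive pooled, and group pairs came from a 3-group fit of all 10 mice. A log2 fold change is the first group minus the second, and its SE was taken from the F value. Log2 CPM used a prior count of 2. Exon coordinates of the files were checked against mm9: the last exon end lay inside all 21 chromosomes, and 47 of 48 inner exons of the members had AG before and GT after them. The code was tested on simulated data. Tables and figures used Python 3.11.15, numpy 2.4.6, pandas 2.3.3, scipy 1.17.1 and matplotlib 3.10.9.

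The members, lists and tests were chosen with earlier results of these data known. Genes named were the 5 members, the 3 smallest adjusted p of each list, 14 further genes whatever their result (Eln, Col1a1, Col3a1, Col4a1, Bmp1, Pcolce, Postn, Fn1, Atp7a, Fmod, Plod2, Tgfb1, Hif1a, Snai2), and the 5 genes nearest to each member that passed the filter. Of the genes nearest to Loxl3, 1 is not reported here. Alternatives were DESeq2 1.42.0 and its size factors, library size alone, dropping the filter, a minimum of 10 counts in each mouse, a robust fit, Sham or Naive alone as control, 3 groups averaged, only the compared groups, a threshold of 0.05, each mouse left out, and, for likeness, a prior count of 0.5 or Spearman's rho. Depth limits the scarce members, and a count of 0 would allow up to 3 counts, counting error only. RT-qPCR and Western blot values were not analysed here.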

Additional observations from a re-analysis of the deposited data

Results flagged for a closer look

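Loxl1 in SAH mice was set apart by 1 sample: mouse 3, at 3.18 CPM, lay below mice 1, 2 and 4, at 4.79, 4.93 and 4.84 CPM, and the gap to its nearest neighbour was 0.919 of the whole range of the 4 mice, above Dixon's 95% critical value of 0.829. The 5 members were examined in SAH and in control, 10 groups in all, and chance flags about 1 in 20 such groups. The other 9 were within the limit, Lox in SAH at 0.616 and Loxl3 in SAH at 0.768 among them. The library of mouse 3 also had the highest Lox and the highest summed choroid plexus and astrocyte markers of the 10 mice, and the part of these in its Loxl1 value was not tested.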

How the results depend on the processing

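With 3 or 4 mice a group and at most 73 counts of Lox or Loxl2 in any mouse, small differences of the scarce members could not be detected at this depth. In SAH against control the call of Loxl2 was kept by DESeq2 (adjusted p = 0.000917), the other scalings, filters, the robust fit, 0.05 and Naive mice alone (adjusted p = 0.0525), and lost with Sham mice alone (log2 fold change 0.89, adjusted p = 0.287). Lox ranged from 1.67 to 2.35 when mice were left out singly, and it could not be fitted where every mouse needed 10 counts. Leaving out mice moved Loxl2 between 0.95 and 1.16, and, against Naive, between 1.08 and 1.34. Loxl3 against Naive ranged from −0.02 to 0.11. Plod2, near 0, changed sign with Sham mice alone (−0.02), without the filter (−0.00) and among the leave-one-out fits (−0.06 to 0.06).

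Pathway genes called higher numbered 24, between 18 and 26 with each mouse left out, 15 with Naive mice alone and 4 with Sham mice alone. Those called lower numbered 1, or 1 to 2 with each mouse left out and 0 with Sham mice alone. Naive mice alone kept the lower call of Smad7 (log2 fold change −0.45, adjusted p = 0.0537 by edgeR). Over all genes, 470 were called higher and 231 lower; DESeq2 called 637 and 397, Naive mice alone gave 201 and 81, and Sham mice alone gave 12 and 0, where 1176 had an unadjusted p under 0.05. With mice left out singly these calls numbered 223 (without SAH mouse 4) to 686 (without SAH mouse 2) higher and 85 to 407 lower, against Sham 6 to 166 and 0 to 55, and against Naive 87 to 443 and 22 to 240. Of the 5 genes nearest to Lox, Loxl1, Loxl2 and Loxl3, Spearman's rho shared 0, 0, 1 and 0, and taking out group means, a count added after the data were seen, shared 0, 0, 0 and 3. The cause of these shifts was not tested. No paired analysis was possible because no mouse number occurs in more than 1 group.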
